A study of Mus musculus with 6 samples.

Results

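The 44 genes described here encode the actin cytoskeleton: the actins themselves and the proteins that bind monomers, nucleate, cap, bundle and pull on filaments or tie them to adhesions and to the membrane. They were chosen by gene symbol from a list of actins, ARP2/3 subunits, capping, bundling, myosin and adhesion-linker genes, and all 44 were found among the 21515 genes of the deposited table. RNA came from mouse bone marrow cells (C57BL/6) immortalised with NUP98-NSD1, a leukaemia fusion gene, and NRASG12D, an activated RAS allele; both groups carried these alleles and a lentivirus expressing Cas9 and the dTomato reporter. The Clec12a knockout group (replicates 1, 4 and 5) received the T44 guide, which targets the inhibitory myeloid receptor gene Clec12a, and the control group (replicates 6, 8 and 9) received a guide against the bacterial gene lacZ. All cells were kept for 48 hours in medium with 15% serum, interleukin-6, interleukin-3 and stem cell factor. They had been sorted singly and expanded. The labels do not say whether each library is the progeny of 1 cell, so p-values reflect only how far these libraries vary. The comparison asks which transcripts differ once Clec12a is targeted.

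Actin exists as a soluble monomer and as a filament, and cells turn filaments over continuously by adding monomers at one end and removing them at the other. In myeloid cells branched filaments made by the ARP2/3 complex drive crawling and engulfment, while myosin pulls on filaments to contract the cell body. Transcription of several actin genes depends on serum response factor (SRF), which binds a sequence called the CArG box and whose cofactors are held back by actin monomers.

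The genes were abundant, and the cells had myeloid markers. Levels are in FPKM (fragments corrected for transcript length and for the number of mapped fragments). The 44 genes together made up 4.92%, 4.61% and 4.79% of the FPKM total in knockout replicates 1, 4 and 5, against 3.29%, 3.50% and 4.31% in control replicates 6, 8 and 9, so the groups did not overlap. Actb alone made up 1.19%, 1.10% and 1.09% of the total in those knockout libraries, against 0.551%, 0.544% and 0.899% in those controls. The summed share thus leans on abundant genes and does not describe each of the 44. Actb had the second highest mean of all 21515 genes. The total itself differed with the guide: knockout libraries lay between 590211 and 699113, and controls between 534440 and 554534. Estimated depth ran from 33700000 to 61000000 fragments. Clec12a, the targeted gene, was at 170, 129 and 94.5 FPKM in knockout libraries, against 157, 246 and 280 FPKM in controls (limma, adjusted p = 0.130). The groups overlapped, which does not test the guide, because a small edit can leave the level of a transcript as it was. In bulk RNA, fewer cells of a type and less RNA per cell cannot be told apart. Of 14 myeloid markers 13 were tested, and none of these passed; Cd34, a progenitor marker, stayed below 1 FPKM in all 6 libraries. Kit, the stem cell factor receptor of progenitors, was low and uneven, at 0.736, 1.18 and 6.66 FPKM in knockout libraries, against 27.6, 8.03 and 0.715 FPKM in controls. Over the 14 markers knockout libraries summed to between 7537 and 12914 FPKM, and controls to between 7862 and 11369 FPKM. Lyz2, Elane and Prtn3 carried most of these sums. Cd33 was lower in every knockout library (31.3, 36.7 and 40.3 FPKM) than in any control (49.9, 69.0 and 117 FPKM). For the other myeloid markers the groups overlapped. None of 7 stroma and endothelium markers and none of 8 T and B cell markers reached 1 FPKM. Of 7 muscle genes in the table, Acta2, the smooth muscle actin, alone reached 1 FPKM, at 2.83, 6.39 and 7.11 FPKM in knockout libraries and 2.70, 0.948 and 1.24 FPKM in controls. Of 9 red cell and platelet markers 3 did (Klf1, Pf4 and Ppbp), and that list summed to at most 5.64 FPKM in knockout libraries and 4.49 FPKM in controls.

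In knockout cells 2 of the 44 genes rose: Tmsb10, which encodes thymosin beta-10, a small protein that binds actin monomers, and Tpm4, which encodes a tropomyosin that coats filaments. Tpm4 was below 1 FPKM in all 3 controls and met the filter on low values (1 FPKM in 3 libraries) only through the knockout group; without that filter neither gene passed (adjusted p = 0.0871 for Tmsb10 and 0.134 for Tpm4). None fell, and 42 did not pass. Over all 9830 genes tested 1.90% changed, 1.38% higher and 0.519% lower, so 2 of 44 called higher is a small count that single libraries can move. At an unadjusted p under 0.05 there were 15 of the 44 genes higher and 0 lower, against 12.0% and 15.9% of all genes. The median log2 fold change of the 44 genes was 0.34, against -0.06 over all genes tested. Higher values in knockout cells were seen for 31 of the 44 (70.5%), against 46.0% of all genes tested. Knockout and control libraries did not overlap for 21 of the 44 genes, 18 of them higher in knockout libraries and 3 lower. Over all genes tested these shares were 14.5% higher and 21.8% lower. With libraries scaled to equal totals, 11 of the 44 were higher without overlap and 6 lower, against 8.86% and 31.5% of all genes. Each log2 change below is the difference in mean log2(FPKM + 1), knockout minus control, and a gene is said to have risen only where limma's adjusted p was under 0.05.

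**Figure D1:**
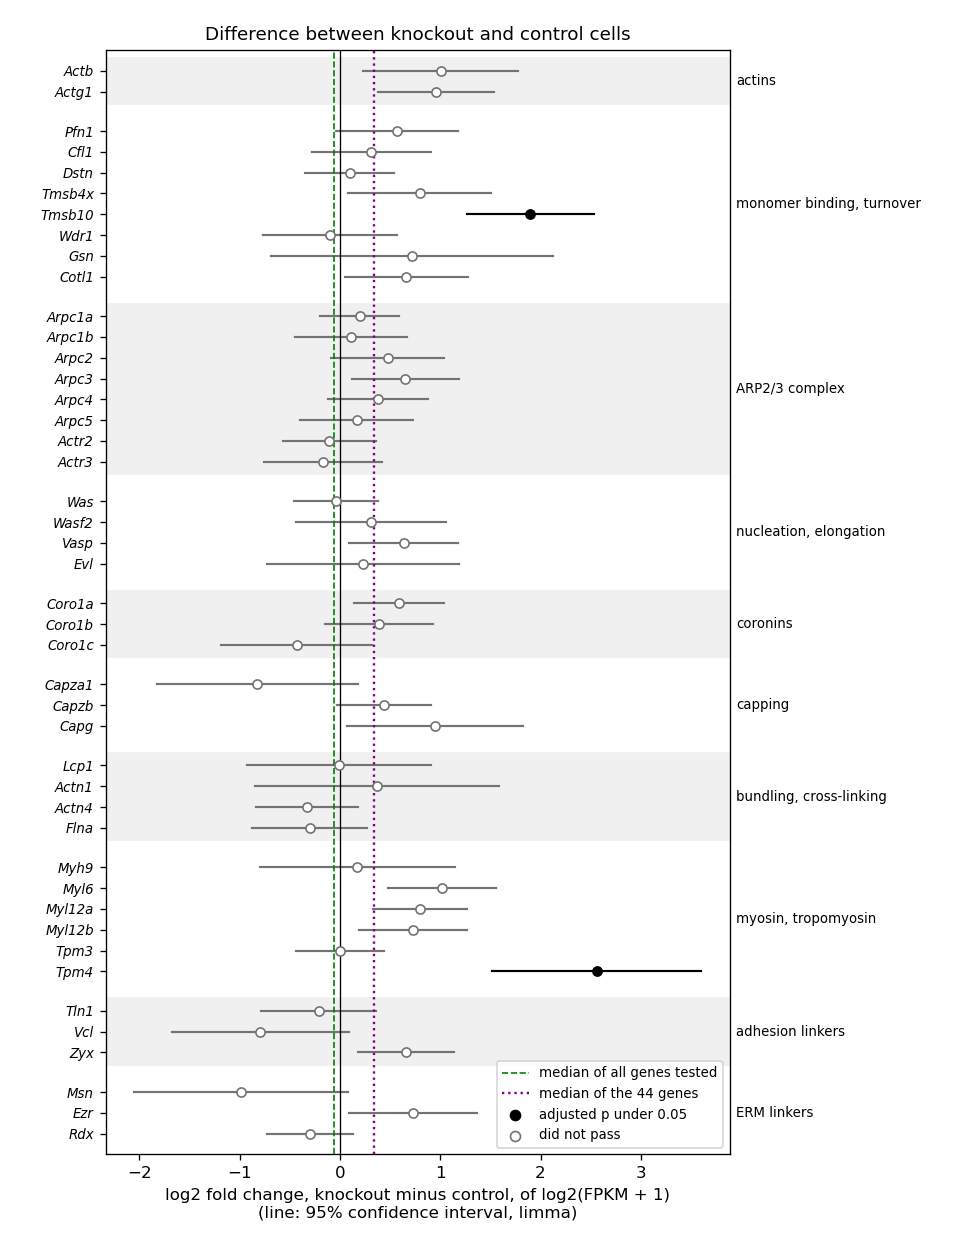
Log2 fold change (knockout minus control, of log2(FPKM + 1); points) with its 95% confidence interval (lines) for each of the 44 genes, ordered by role, n = 3 libraries per group. Tmsb10 (1.90) and Tpm4 (2.56) are the filled points that passed; the median of the 44 genes (0.34, dotted) lies to the right of that of all genes tested (-0.06, dashed).

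The sequences upstream of the genes that rose are shown first, because transcript level was the only readout. They are the 250 bases before the RefSeq start of Tpm4 (chr8:72135038-72135287, plus strand) and before the most upstream of 3 annotated starts of Tmsb10 (chr6:72958749-72958998, minus strand), from RefSeq on GRCm38.p6. GENCODE M21 starts Tpm4 further upstream, so this window begins 63 bases inside the GENCODE gene, and where transcription starts in these cells was not measured. Capitals mark GGGCGG, the core of a GC box that SP1-family factors bind, or its reverse complement CCGCCC.
Tpm4: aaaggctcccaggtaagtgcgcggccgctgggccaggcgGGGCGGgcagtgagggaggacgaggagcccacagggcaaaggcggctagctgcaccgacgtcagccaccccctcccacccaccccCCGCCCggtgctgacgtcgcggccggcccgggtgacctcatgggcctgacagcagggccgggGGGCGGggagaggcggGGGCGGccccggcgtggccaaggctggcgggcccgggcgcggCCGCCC
Tmsb10: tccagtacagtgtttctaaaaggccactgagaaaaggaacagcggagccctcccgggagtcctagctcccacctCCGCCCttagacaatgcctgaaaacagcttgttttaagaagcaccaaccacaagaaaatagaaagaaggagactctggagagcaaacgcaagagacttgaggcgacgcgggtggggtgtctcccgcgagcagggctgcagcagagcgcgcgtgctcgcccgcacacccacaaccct
The Tpm4 window held 5 such matches and this Tmsb10 window 1. Of 41 actin genes with a RefSeq window, 31 (75.6%) held GGGCGG on either strand before at least 1 start, against 35.4% of all 27025 genes with a window. TATAAA, read on both strands, stood in 1 of the 41 (Myh9, 2.44%), against 14.3% of all genes. These backgrounds include genes that were not tested here, whereas all 41 actin genes were. The shares among genes at like levels were not measured.

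A CArG box, read as a full match on both strands, stood before 4 of the 41 genes (9.76%), against 1.62% of all genes with a window, tested here or not. These were Actg1, Myl6, Vcl and Arpc4, shown with the box in capitals and up to 30 bases on each side within the 250 bases searched (Actg1 chr11:120348546-120348615, minus strand; Myl6, before the inner of 2 starts and so inside the gene, chr10:128493020-128493089, minus strand; Vcl chr14:20929148-20929210, plus strand; Arpc4 chr6:113377863-113377902, plus strand).
Actg1: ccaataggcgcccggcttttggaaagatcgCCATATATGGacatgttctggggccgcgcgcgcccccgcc
Myl6: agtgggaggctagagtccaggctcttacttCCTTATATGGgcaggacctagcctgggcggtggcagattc
Vcl: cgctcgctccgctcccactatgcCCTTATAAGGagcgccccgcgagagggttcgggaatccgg
Arpc4: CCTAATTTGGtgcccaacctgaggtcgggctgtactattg
The 4 genes did not share a direction: Actg1, Myl6 and Arpc4 were higher in every knockout library than in any control, and Vcl was lower in every knockout library. A CArG box cannot contain GGGCGG by its pattern. The bases searched before Actg1, Myl6 and Vcl also held GGGCGG on either strand, and those before none of the 4 genes held TATAAA. A match is a run of letters and not evidence of binding. Actb, Coro1b and Cotl1 were not matched to a window.

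Both actin genes were higher in all 3 knockout libraries than in any control, at about 1.9 times the control mean, but neither passed. Actb (chromosome 5, 142903115 to 142906754), the beta-actin gene, was at 7194, 7695 and 6411 FPKM in knockout libraries, against 2946, 3018 and 4943 FPKM in controls. Its log2 change was 1.0 (SE 0.34, 95% interval 0.23 to 1.78, adjusted p = 0.115). Control replicate 9 stood well above the other controls and still below every knockout library. Actg1 (chromosome 11, 120345690 to 120348542), the gamma-actin gene, was at 748, 963 and 677 FPKM in knockout libraries, against 315, 409 and 510 FPKM in controls (log2 change 0.96, SE 0.25, adjusted p = 0.0809; 0.63 with quantile normalization). Both differed by nearly the same amount, so gamma-actin made up 9.41%, 11.1% and 9.55% of the sum of Actg1 and Actb in knockout libraries and 9.65%, 11.9% and 9.35% in controls. Part of the Actg1 level is uncertain, since 56.7% of the 50-base stretches of its transcript also occur in transcripts of other genes, such as the pseudogene Gm12715.

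**Figure D2:**
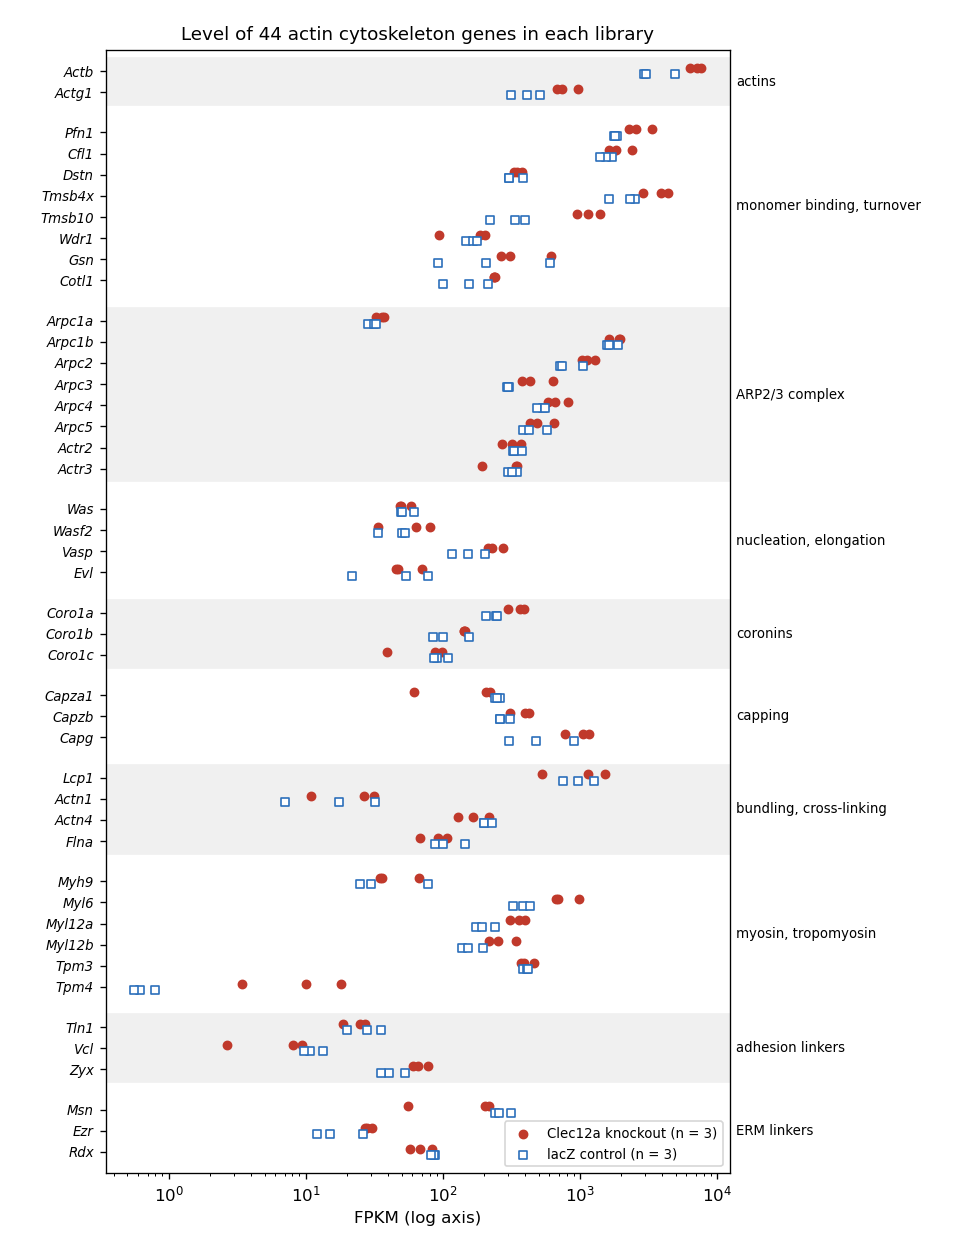
FPKM (log axis) of the 44 genes in each of 3 knockout libraries (filled circles) and 3 control libraries (open squares), ordered by role. The knockout and control points separate for 21 genes, among them Tmsb10 (951 to 1413 against 222 to 398 FPKM) and Tpm4 (3.44 to 18.0 against 0.557 to 0.795 FPKM), while Msn, Capza1 and Vcl have 1 knockout library far below the rest.

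Among the 8 genes that hold monomers or turn filaments over, 1 rose and 7 did not pass, and 7 of the 8 had higher values in knockout cells. Tmsb10 (chromosome 6, 72957347 to 72958748) was at 951, 1413 and 1151 FPKM in knockout libraries, against 222, 336 and 398 FPKM in controls. Every knockout library was thus more than 2 times as high as any control. The means were 1172 ± 232 and 319 ± 89.3 FPKM (SD, n = 3 each), a ratio of 3.68, and the log2 change was 1.90 (SE 0.28, 95% interval 1.26 to 2.53, adjusted p = 0.0215). Leaving out knockout replicate 4 ended the call (log2 change 1.75, adjusted p = 0.0759), as did leaving out control replicate 8 (1.96, adjusted p = 0.0955) and dropping the filter (adjusted p = 0.0871), and with length and GC content of transcripts corrected for the change was 1.27 (adjusted p = 0.0430). Of the 50-base stretches of its transcript 43.5% also occur in other genes, such as the pseudogene Gm9844. Within 5 Mb of Tmsb10 26 other genes were tested, with a median log2 fold change of -0.10 and none called.

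Tmsb4x (X chromosome), which encodes thymosin beta-4, the main monomer buffer of blood cells, was at 2879, 4368 and 3943 FPKM in knockout libraries, against 1628, 2508 and 2323 FPKM in controls (log2 change 0.80, SE 0.31, adjusted p = 0.147). That change was 0.41 with length and GC content corrected for and 0.29 with quantile normalization. Tmsb10 thus stood higher relative to Tmsb4x in knockout libraries, and the ratio within a library does not move with library scaling. Thymosin beta-10 transcripts made up 24.8%, 24.5% and 22.6% of the 2 thymosins in knockout libraries and 12.0%, 11.8% and 14.6% in controls. The log2 ratio differed by 1.10 between the groups, and the exact permutation test gave p = 0.1, the smallest that 3 against 3 libraries allow (adjusted p = 0.325 over 13 pairs).

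Pfn1, whose product profilin feeds monomers to growing filaments, was at 2286, 3337 and 2591 FPKM in knockout libraries, against 1883, 1763 and 1814 FPKM in controls (adjusted p = 0.197); its log2 change was 0.57, but 0.057 with length and GC content corrected for. Cotl1, a cofilin-related filament-binding protein, was nearly level in knockout libraries, at 241, 236 and 237 FPKM, against 100.4, 156 and 214 FPKM in controls (adjusted p = 0.156); its log2 change was 0.66, 0.30 with that correction and 0.38 without control replicate 6. Groups did not overlap for either gene. The severing genes Cfl1 (cofilin) and Dstn (destrin) overlapped between groups, with log2 fold changes of 0.31 and 0.10, and so did Wdr1, a helper of cofilin, with -0.10. Gsn, the severing and capping protein gelsolin, varied widely between controls: the values were 620, 266 and 311 FPKM in knockout libraries, against 91.8, 206 and 606 FPKM in controls (log2 change 0.72, SE 0.62, adjusted p = 0.456). Without control replicate 6 the change of Gsn was 0.074, without control replicate 9 it was 1.43, and without knockout replicate 1 it was 0.35.

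None of the 8 ARP2/3 genes passed, and their log2 fold changes were small, from -0.17 to 0.65 with a median of 0.18. The complex summed to 5670, 5468 and 4885 FPKM in knockout replicates 1, 4 and 5 and to 4163, 4309 and 5127 FPKM in control replicates 6, 8 and 9, so the groups overlapped. Arpc3 was at 379, 633 and 431 FPKM in knockout libraries, against 295, 302 and 298 FPKM in controls (log2 change 0.65, SE 0.23, adjusted p = 0.125), and the change was 0.25 with length and GC content corrected for. Arpc4 was at 664, 826 and 586 FPKM in knockout libraries, against 538, 484 and 559 FPKM in controls (adjusted p = 0.277); its log2 change was 0.38, 0.25 without knockout replicate 4 and -0.035 with quantile normalization. For these and for Arpc1a the groups did not overlap. Arpc1a was at 37.5, 36.2 and 32.8 FPKM in knockout libraries, against 28.4, 31.6 and 32.5 FPKM in controls, a difference of 0.20 on the log2 scale. Of the 2 alternative Arpc1 subunits these cells used Arpc1b almost throughout: Arpc1b was at 1937, 1957 and 1630 FPKM in knockout libraries, against 1577, 1642 and 1902 FPKM in controls, and Arpc1a made up 1.68% to 1.97% of the sum in all 6 libraries. The actin-related subunits Actr2 and Actr3 had log2 fold changes of -0.11 and -0.17, and Arpc2 and Arpc5 of 0.48 and 0.17, all overlapping between groups; with equal totals the differences of Arpc1a, Arpc1b and Arpc5 were slightly below 0. Arpc4 shares 12.2% of its exon bases with Ttll3, and 49.8% of the 50-base stretches of Actr3 occur in other genes.

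Of the 4 genes that switch on or extend filaments none passed. Vasp, which speeds filament growth, was at 277, 227 and 215 FPKM in knockout libraries, against 153, 116 and 203 FPKM in controls, without overlap (log2 change 0.63, SE 0.24, adjusted p = 0.139). Its relative Evl overlapped (log2 change 0.23), as did Was, the Wiskott-Aldrich protein that activates ARP2/3 in blood cells (-0.04), and Wasf2 of the WAVE complex (0.31). Among the 3 coronins, which regulate branched filaments, Coro1a was at 301, 394 and 363 FPKM in knockout libraries, against 243, 249 and 208 FPKM in controls (log2 change 0.59, SE 0.20, adjusted p = 0.111). Coro1a was without overlap between groups, and its change was 0.25 with length and GC content corrected for. Coro1b (log2 change 0.39) and Coro1c (-0.43) overlapped. Coro1c was at 98.4, 39.0 and 88.1 FPKM in knockout libraries, against 90.0, 86.6 and 108 FPKM in controls, so its lower knockout mean came from knockout replicate 4, and without that library its log2 change was -0.02.

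The capping genes differed in opposite directions and none passed. Capzb, the beta subunit of the protein that caps the growing end of filaments, was at 399, 422 and 311 FPKM in knockout libraries, against 260, 260 and 310 FPKM in controls (log2 change 0.44, SE 0.20, adjusted p = 0.194; 0.25 with length and GC content corrected for). Its partner Capza1 was at 222, 61.2 and 207 FPKM in knockout libraries, against 242, 264 and 247 FPKM in controls (log2 change -0.82, SE 0.44, adjusted p = 0.248). Groups did not overlap for either, but knockout replicate 4 stood far below all other libraries for Capza1, and without it the log2 fold change was -0.23. Of the 50-base stretches of Capza1 73.8% occur in other genes, such as Gm3608, so its level is uncertain. Capg, a macrophage capping protein of the gelsolin family, was at 1159, 1059 and 784 FPKM in knockout libraries, against 305, 480 and 911 FPKM in controls (log2 change 0.95, SE 0.39, adjusted p = 0.155). The groups overlapped for Capg through control replicate 9, which also had the highest Gsn of the controls. The change of Capg was 0.58 without control replicate 6 and 0.51 with length and GC content corrected for.

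The 4 bundling and cross-linking genes overlapped between groups, and none passed. Lcp1, the leukocyte plastin that bundles filaments, was at 1539, 527 and 1139 FPKM in knockout libraries, against 759, 975 and 1269 FPKM in controls (log2 change -0.01, 95% interval -0.92 to 0.91, adjusted p = 0.992). Its interval is wide, so a change of 1.5 times in either direction lies within it. Flna (filamin A) and Actn4 had log2 fold changes of -0.30 and -0.33, and Actn1 of 0.37 with an SE of 0.53.

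Among the 6 myosin and tropomyosin genes, Tpm4 rose, with the limits given above and beside its values, and the light chains of non-muscle myosin were higher without passing. Myl6, the essential light chain, was at 689, 983 and 674 FPKM in knockout libraries, against 326, 388 and 434 FPKM in controls (log2 change 1.02, SE 0.24, adjusted p = 0.0640), the lowest adjusted p of the 42 genes that did not pass. Its change was 0.50 with length and GC content corrected for. The regulatory light chain gene Myl12a was at 357, 395 and 308 FPKM in knockout libraries, against 174, 194 and 242 FPKM in controls (log2 change 0.80, adjusted p = 0.0781). Myl12b, its neighbour on chromosome 17, was at 254, 343 and 216 FPKM in knockout libraries, against 137, 151 and 198 FPKM in controls (log2 change 0.73, adjusted p = 0.108). For all 3 light chains the groups did not overlap. Myh9, the heavy chain with which they assemble, overlapped: the values were 67.2, 35.8 and 34.9 FPKM in knockout libraries, against 29.8, 25.1 and 77.6 FPKM in controls (log2 change 0.17, SE 0.43, adjusted p = 0.811). Of the 50-base stretches of Myl6 53.3% occur in other genes, and of those of Myl12a 29.6%. Myl12b is among the genes that share stretches with Myl12a, so the split between Myl12a and Myl12b is uncertain.

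Tpm4 (chromosome 8, 72134975 to 72153142) was low but detected in controls, and higher in every knockout library than in any control. Its values were 9.97, 3.44 and 18.0 FPKM in knockout replicates 1, 4 and 5, against 0.616, 0.795 and 0.557 FPKM in control replicates 6, 8 and 9. At the estimated depths these levels correspond to 372 to 1289 fragments per knockout library and 54.0 to 80.9 per control. The knockout mean was 10.5 ± 7.28 FPKM and the control mean 0.656 ± 0.124 FPKM (SD, n = 3 each), a ratio of 15.9. The log2 change was 2.56 (SE 0.46, 95% interval 1.51 to 3.60, adjusted p = 0.0388); with a pseudocount of 0.1 in place of 1 it was 3.53. Knockout libraries differed widely from each other, and Tpm4 passed the filter on low values through the knockout group alone. Leaving out knockout replicate 1 ended this call (adjusted p = 0.117), as did leaving out control replicate 6 (0.0768), 8 (0.128) or 9 (0.0643), scaling libraries to equal totals (0.0552) or dropping the filter (0.134). Of the 50-base stretches of Tpm4 12.1% occur in other genes. Within 5 Mb of it 98 other genes were tested, with a median log2 fold change of 0.11, of which 3 were called higher and 2 lower.

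Tpm3, the most abundant of the tropomyosin genes measured here, had no difference between the group means. The values were 463, 389 and 373 FPKM in knockout libraries, against 387, 414 and 418 FPKM in controls (log2 change 0.00, 95% interval -0.44 to 0.44, adjusted p = 0.999). Tpm3 made up 97.9%, 99.1% and 95.4% of the sum of Tpm3 and Tpm4 in knockout libraries and 99.8%, 99.8% and 99.9% in controls. Tpm1, described below, was above Tpm4 in every library and is outside this sum. The log2 ratio of Tpm3 over Tpm4 differed by -2.56 between groups, without overlap (exact permutation p = 0.1, adjusted p = 0.325). With no difference in Tpm3, that ratio restates the change of Tpm4 and is not a separate result. Of the 50-base stretches of Tpm3 62.4% occur in other genes, mostly in Tpm3-rs7.

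The genes that tie filaments to adhesions and to the membrane split within each family, and none passed. Zyx, the adhesion protein zyxin, was at 78.1, 65.5 and 60.8 FPKM in knockout libraries, against 40.8, 35.5 and 53.1 FPKM in controls (log2 change 0.66, SE 0.21, adjusted p = 0.103). Vcl, which encodes vinculin and stabilises the link between talin and actin, was at 8.07, 2.64 and 9.45 FPKM in knockout libraries, against 10.8, 13.4 and 9.63 FPKM in controls (log2 change -0.79, SE 0.39, adjusted p = 0.211). The groups did not overlap for either, though Vcl in knockout replicate 5 and control replicate 9 was nearly equal, and 25.5% of its exon bases are shared with Ap3m1. Tln1 (talin) overlapped (log2 change -0.21).

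Ezrin, radixin and moesin form the family that anchors filaments to the plasma membrane, and moesin is its main member in blood cells. Msn was at 203, 55.8 and 219 FPKM in knockout libraries, against 242, 259 and 314 FPKM in controls (log2 change -0.99, SE 0.47, adjusted p = 0.203). Ezr was at 30.6, 27.0 and 27.9 FPKM in knockout libraries, against 26.2, 14.9 and 12.0 FPKM in controls (log2 change 0.73, SE 0.28, adjusted p = 0.141). The groups did not overlap for Msn or Ezr, in opposite directions, and Rdx overlapped (log2 change -0.30). Ezr made up 13.1%, 32.6% and 11.3% of the sum of Ezr and Msn in knockout libraries and 9.78%, 5.45% and 3.69% in controls (difference in log2 ratio 1.71, exact permutation p = 0.1, adjusted p = 0.325). With both genes already apart in opposite directions, their ratio could only separate. It restates the differences of Ezr and Msn and is not a separate result. Knockout replicate 4 again stood apart, and without it the changes of Msn and Vcl were -0.35 and -0.32 and the difference in the log2 ratio of Ezr to Msn was 1.12.

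**Figure D3:**
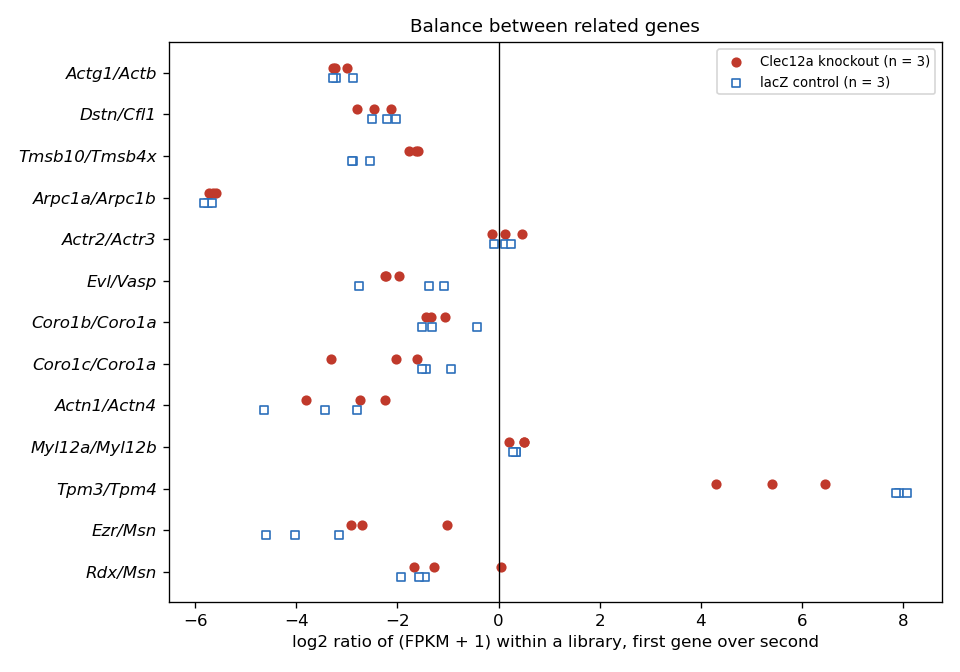
Log2 ratio of (FPKM + 1) between 13 pairs of related genes within each of 3 knockout libraries (filled circles) and 3 control libraries (open squares). The groups separate for 4 pairs, Tmsb10/Tmsb4x, Coro1c/Coro1a, Tpm3/Tpm4 and Ezr/Msn, each with an exact permutation p of 0.1, and overlap for the other 9, among them Actg1/Actb.

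The plot of ratios between related genes covers 13 pairs, of which 4 did not overlap between groups. Besides the thymosin, tropomyosin and ezrin pairs this was Coro1c over Coro1a, with a difference of -1.02 on the log2 scale (exact permutation p = 0.1, adjusted p = 0.325), and of -0.53 without knockout replicate 4. None of the 13 could pass, since 0.1 is the smallest p the design allows before adjustment. The share of other gene pairs without overlap was not measured. Of all single genes tested 14.5% were higher and 21.8% lower without overlap, so 4 of 13 is not read as a result about these pairs. The differences for the other 9 pairs ran from -0.40 (Evl over Vasp) to 0.69 (Rdx over Msn and Actn1 over Actn4), and these 3 moved with single libraries: without knockout replicate 4 the difference of Rdx over Msn was 0.17, without control replicate 6 that of Actn1 over Actn4 was 0.19, and without control replicate 8 that of Evl over Vasp was -0.077.

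Other regulators of actin that are not among the 44 did not pass either. Of 77 such genes measured, 64 were tested, and 0 were called by limma. At an unadjusted p under 0.05 there were 10 higher and 5 lower, against 12.0% and 15.9% of all genes. Array weights called 21 higher and 5 lower, where they called 19.2% of all genes higher and 23.1% lower. Their median log2 fold change was 0.13. The groups did not overlap for 24 of them, 13 higher and 11 lower in knockout libraries (20.3% and 17.2%, against 14.5% and 21.8% of all genes). Those with the lowest p included Tpm1, a further tropomyosin, which was at 38.8, 35.6 and 29.3 FPKM in knockout libraries, against 16.0, 21.9 and 17.9 FPKM in controls (log2 change 0.86, adjusted p = 0.0669). Cnn2, a calponin that binds filaments, averaged 86.8 ± 7.40 FPKM in knockout libraries and 48.7 ± 9.77 FPKM in controls (adjusted p = 0.0685), and the calponin-related Tagln2 averaged 430.4 ± 42.5 and 262 ± 21.2 FPKM (adjusted p = 0.0810). Anln, which encodes the scaffold anillin of the cytokinetic ring, was lower, at 13.4 ± 5.78 FPKM in knockout libraries and 29.8 ± 0.630 FPKM in controls (log2 change -1.20, adjusted p = 0.0818). Srf itself was low, at 2.74, 6.57 and 2.07 FPKM in knockout libraries and 2.04, 2.06 and 1.17 FPKM in controls, and did not pass (adjusted p = 0.215), although the groups did not overlap by a narrow margin; it was chosen after its values were seen.

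Transcript length went with the direction of the 44 genes, as it did over all genes. All 17 actin genes whose representative transcript was under 2000 bases had higher values in knockout cells, with a median log2 fold change of 0.65, and 12 of them did not overlap, all higher. Of the 27 of 2000 bases or more, 14 had higher values, the median was 0.00, and 6 were without overlap and higher and 3 without overlap and lower. Over all genes tested the medians were 0.26 for 3030 short and -0.21 for 6790 long transcripts. Of the short ones 28.4% did not overlap and were higher, and of the long ones 8.22%; lower without overlap were 6.40% and 28.7%. With each library corrected for length and GC content of transcripts, 13 actin genes were higher without overlap and 0 lower, against 13.4% and 18.8% of all genes. Of the 18 that were higher without overlap before, 8 had a change over 1.5 times smaller after it (Pfn1, Tmsb4x, Cotl1, Arpc1a, Arpc3, Coro1a, Capzb and Myl6). Settings that use no length also did this, to 8 of the 18 with quantile normalization, 5 with equal totals and 3 with array weights. Abundance went with direction too: of 1203 genes with a mean of 100 FPKM or more, 25.2% were higher and 10.1% lower without overlap; of the 30 actin genes at that level 14 were higher (46.7%) and 2 lower (6.67%). The part of length and abundance in the differences between groups was not tested beyond these values.

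**Figure D4:**
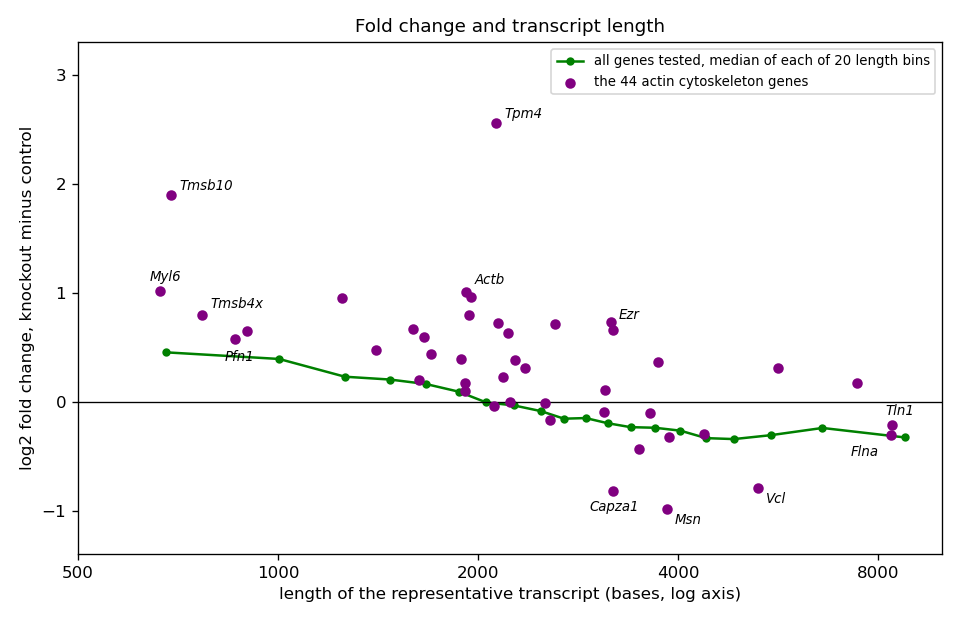
Log2 fold change (knockout minus control) against the length of the representative transcript (bases, log axis) for the 44 actin genes (purple) and, over all genes tested, the median of each of 20 length bins (green). The green line falls from 0.45 in the shortest bin to -0.33 in the longest, and all 17 actin genes under 2000 bases lie above 0.

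Libraries of 1 group differed from each other. Knockout replicate 4 showed the split between short and long transcripts most: its median deviation from the gene means was 0.57 for the 17 short actin genes and -0.12 for the 27 long ones (log2), against 0.36 and -0.25 for all short and long genes. It was the highest library for 15 of the 44 genes (28.2% of all genes) and the lowest for 12 (34.6%). In knockout replicates 1 and 5 both classes of actin genes were above their means, at 0.35 and 0.23 in replicate 1 and 0.21 and 0.08 in replicate 5. Among the controls, replicate 9 was the highest for 31 of the 44 genes (34.3% of all genes) and replicate 6 the lowest for 28 (30.5%). Control replicate 9 also had the most Lyz2 (8707 FPKM, against 2865 to 4880 in the other 5 libraries) and the least Elane (801 against 1994 to 4769 FPKM), myeloid genes made late and early in maturation. How far that goes with its actin genes was not tested. Without control replicate 9 the median log2 fold change of the 44 genes was 0.51, and without control replicate 6 it was 0.18.

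**Figure D5:**
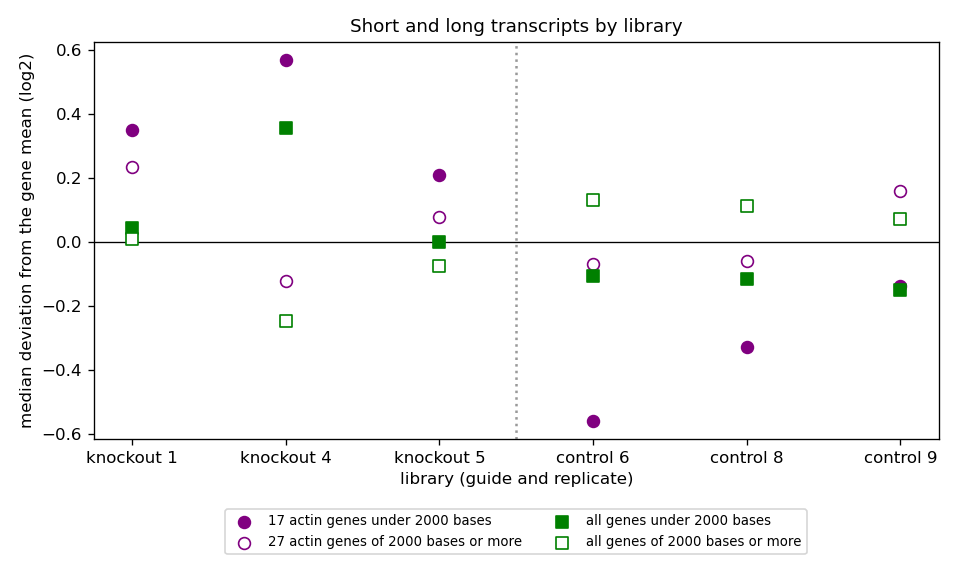
Median deviation from the gene mean (log2) in each library for actin genes (circles) and all genes tested (squares), split at a transcript length of 2000 bases (filled: shorter). Short actin genes lie at 0.21 to 0.57 in the 3 knockout libraries and at -0.56 to -0.14 in the 3 controls; long ones overlap between groups.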

How the data were processed

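Bulk RNA of 3 Clec12a knockout and 3 lacZ control libraries was used. The authors deposited 1 table of FPKM by gene symbol, with 1 column per library matched by title. The submitters' processing notes name STAR 2.5.2b, FastQC and mm10, with the counting program and its annotation not given in the sources used here. Because FPKM are not counts, count models were not used. Depth was estimated from 4151 genes with 1 annotated transcript, as the number of fragments at which FPKM times length came closest to whole numbers; 62.8% to 69.9% of values from 1 to 5 lay within 0.1 of one, so whole reads were not recovered and the depths are estimates. Between 3489 and 6834 genes per library were at 0.

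The filter asked for 1 FPKM or more in 3 or more of the 6 libraries and left 9830 genes. Their log2(FPKM + 1) values went into limma 3.58.1 under R 4.3.3 (intensity trend, two-sided, Benjamini-Hochberg adjustment over all genes, threshold 0.05). Ratios of related genes were compared by a two-sided exact permutation test over libraries. Symbols were matched to GENCODE M21 (GRCm38): 21414 directly, 75 by synonym and 26 not at all. The representative transcript was the principal, best supported one. Upstream windows came from RefSeq (GRCm38.p6), with 250 bases searched. On simulated data with 200 of 9830 genes changed, the test recovered 81.8% of 66 genes changed 4-fold, 14.9% of 67 changed 2-fold and 0% of 67 changed 1.5-fold, with 4 false among 68 calls.

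The 44 genes and the other lists were chosen with earlier results of these data known. Every one of the 44 could be named; values in each library are given for genes past the threshold, for genes whose groups do not overlap, for the most abundant gene of each role and for related pairs. Of the other regulators the 4 with the lowest p are named. Alternatives tried were a pseudocount of 0.1 or 0.01, dropping the filter, a mean of at least 5 FPKM, scaling by median ratios, equal totals or quantiles, limma without trend, with a robust prior or array weights, a length and GC correction (splines with 4 degrees of freedom), and leaving out each library. Counts without overlap under other scalings, by length and by abundance were added after seeing the data. Python 3.11.15, numpy 2.4.6, pandas 2.3.3, scipy 1.17.1 and matplotlib 3.10.9 were used.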

Additional observations from a re-analysis of the deposited data

How the results depend on the processing

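The count of actin genes called higher was 2, and 0 were called lower. It was 0 without the filter (adjusted p = 0.0871 for Tmsb10 and 0.134 for Tpm4), 1 with equal totals and 22 with array weights, which also called 1 lower; it ran from 0 to 2 when 1 library was left out. Array weights called 21 higher and 5 lower of the other regulators, and 1886 higher and 2268 lower of all genes, having weighted control replicate 8 at 7.21 and knockout replicate 4 at 0.207. Over all genes 136 were higher and 51 lower; without the filter 22 and 1, at a mean of at least 5 FPKM 72 and 25, with equal totals 71 higher, with pseudocounts of 0.1 and 0.01 32 and 29 lower, and from 19 to 159 higher and 1 to 38 lower with 1 library left out. The median of the actin genes was 0.14 with equal totals, which put that of all genes at -0.24, and ran from 0.18 to 0.51 with 1 library left out. Actin genes without overlap were 11 higher and 6 lower with equal totals and 0 lower after the length and GC correction, and ran from 19 to 24 higher and from 3 to 6 lower with 1 library left out, where 16.2% to 23.98% of all genes were higher and 24.2% to 31.4% lower. Groups that are apart stay apart when a library is left out. The counts with 1 library left out could therefore only stay or grow, and they do not test the separation. Of the 44 genes 26 kept the sign of their fold change under all 17 settings. Some of these settings cannot turn a sign. Dropping the filter, a mean of at least 5 FPKM, limma without trend and a robust prior leave each fold change as it was. Signs turned for 18 genes, with changes between -0.43 (Coro1c) and 0.38 (Arpc4). With equal totals these were Dstn (-0.11), Arpc1a (-1.5e-05), Arpc1b (-0.095), Arpc5 (-0.036), Myh9 (-0.028) and Tpm3 (-0.20). With quantile normalization they were Cfl1 (-0.11), Dstn (-0.17), Arpc1b (-0.34), Arpc4 (-0.035), Arpc5 (-0.16) and Tpm3 (-0.29). With array weights they were Dstn (-0.016), Wdr1 (0.14), Actr2 (0.11), Coro1c (0.050), Lcp1 (0.50) and Tln1 (0.27). After the length and GC correction they were Wdr1 (0.019), Arpc1a (-0.0091), Actr2 (0.27), Evl (-0.0012), Lcp1 (0.090) and Rdx (0.015), and with median ratios Lcp1 (0.0083). The cause was not tested. With 1 library left out, sign turned within these ranges: Wdr1 -0.30 to 0.25, Actr2 -0.22 to 0.014, Actr3 -0.31 to 0.11, Was -0.12 to 0.058, Evl -0.28 to 0.61, Lcp1 -0.34 to 0.43, Actn1 -0.17 to 0.84, Myh9 -0.13 to 0.66 and Tpm3 -0.093 to 0.063. The differences between groups in the log2 ratios of Actg1/Actb (-0.13 to 0.081), Actr2/Actr3 (-0.093 to 0.20) and Coro1b/Coro1a (-0.41 to 0.13) turned sign too. With 3 libraries a group, most changes under 2-fold were below what the test recovered in simulation. No paired analysis was possible because the groups share no replicate numbers.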
